A study of Mus musculus with 12 samples.

Results

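Renal epithelial transcription factors are the proteins that set and keep the identity of the cells lining the nephron. The 8 genes followed here were given by name: Hnf4a, Hnf4g, Pax2, Pax8, Esrra, Ppara, Nr1h4 and Ppargc1a, the last of which encodes a coactivator. All 8 were found among the 24421 gene symbols of the deposited tables, and all 8 passed the filter on low counts in every comparison. The RNA came from whole kidneys of male C57BL/6 mice (C57BL/6J in the study's methods) aged about 6 weeks, with 1 library for each of 12 mice in 4 groups of 3. WT and Tet2-/- kidneys without an operation form the baseline groups, and WT and Tet2-/- kidneys taken 24 h after ischemia of 60 min form the IR (ischemia-reperfusion) groups. At that operation the pedicle of the right kidney was clamped and the left kidney was removed, so a difference between IR and baseline includes surgery and the loss of the other kidney, which cannot be told apart from IR here. Mice labelled Tet2-/-, bred by the study's methods from Tet2+/- pairs, lack by that label both copies of Tet2, which encodes a dioxygenase that oxidizes 5-methylcytosine. No restriction to a cell type is given in the sources used here.

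HNF4A and its paralog HNF4G are nuclear receptors of the proximal tubule, where HNF4A drives the genes for transport and gluconeogenesis. PAX2 and PAX8 are paired-box factors that specify the nephric lineage in the embryo, and in the adult PAX8 is found along the tubule while PAX2 is best known from the collecting duct. ESRRA, PPARA and the coactivator PGC-1alpha (encoded by Ppargc1a) run mitochondrial respiration and fatty acid oxidation, the main energy source of the tubule, and NR1H4 (FXR) is the bile acid receptor.

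The promoters of Hnf4a, Nr1h4 and Esrra are shown because Hnf4a has a pair of alternative starts, because Nr1h4 holds a nuclear receptor core and because Esrra and Hnf4a are the members with the clearest differences below. Windows of 250 bases before the start were available for 7 of the 8 members, 10 windows in all, from RefSeq on GRCm38.p6. Each is written 5′ to 3′ on the strand of the gene, and capitals mark matches on either strand to AGGTCA (nuclear receptor core) or GGGCGG (GC box). The Hnf4a windows are chr2:163506607-163506856 and chr2:163546905-163547154 on the plus strand, the Nr1h4 window is chr10:89506659-89506908 and the Esrra window is chr19:6921809-6922058, both on the minus strand.
Hnf4a upstream start: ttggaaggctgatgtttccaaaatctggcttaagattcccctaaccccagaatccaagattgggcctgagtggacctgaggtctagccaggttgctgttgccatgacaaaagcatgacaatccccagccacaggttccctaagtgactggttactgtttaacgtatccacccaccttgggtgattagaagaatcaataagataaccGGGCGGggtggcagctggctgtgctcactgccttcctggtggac
Hnf4a downstream start: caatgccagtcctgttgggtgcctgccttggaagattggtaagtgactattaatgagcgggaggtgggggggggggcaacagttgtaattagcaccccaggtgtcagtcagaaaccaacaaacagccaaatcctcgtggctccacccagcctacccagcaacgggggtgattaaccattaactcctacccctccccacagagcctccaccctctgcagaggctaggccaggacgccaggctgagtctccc
Nr1h4: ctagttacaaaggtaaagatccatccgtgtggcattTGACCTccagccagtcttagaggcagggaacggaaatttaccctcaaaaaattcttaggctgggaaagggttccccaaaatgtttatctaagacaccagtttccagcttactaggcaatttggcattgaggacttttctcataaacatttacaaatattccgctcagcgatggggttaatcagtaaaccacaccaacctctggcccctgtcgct
Esrra: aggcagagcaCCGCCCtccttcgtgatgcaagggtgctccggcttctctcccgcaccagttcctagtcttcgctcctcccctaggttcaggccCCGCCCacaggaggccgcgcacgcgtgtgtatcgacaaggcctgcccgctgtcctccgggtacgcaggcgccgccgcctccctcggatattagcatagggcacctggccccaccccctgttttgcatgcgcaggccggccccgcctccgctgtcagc

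The Nr1h4 window held the nuclear receptor core in the minus orientation at positions -214 to -209, counted from the start. The upstream Hnf4a window held a GC box at -44 to -39, the Esrra window held it in the minus orientation at -240 to -235 and at -157 to -152, and the downstream Hnf4a window held none of these letters. Of the 32817 promoter windows of this length in the RefSeq table, 14.03% held AGGTCA and 32.7% held GGGCGG. Other motifs were searched on both strands and matched in none of the members' windows. The ERR element TCAAGGTCA was held by 0.387% of all windows. The direct repeat AGGTCANAGGTCA, which contains the nuclear receptor core, was held by 0.0335% and the cyclic AMP response element TGACGTCA by 1.55%. The E-box CACGTG was held by 6.02% and the letters TATAAA by 12.4%. These matches are descriptions of letters in the windows and were not tested for binding.

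Libraries held between 51007366 and 107969888 counts on 1 transcript per gene, and the members had between 489 counts (Hnf4g) and 107549.5 counts (Hnf4a) in a library. The Tet2 transcript went against the labels at baseline, at 9.15, 6.25 and 7.33 FPKM (fragments per kilobase of transcript, scaled to the library total) in WT and at 9.24, 16.6 and 10.3 FPKM in the libraries labelled Tet2-/-, all above the WT libraries (log2 fold change 0.76, SE 0.24, edgeR adjusted p = 0.321). After IR it was 9.34, 3.97 and 3.85 FPKM in WT and 2.64, 3.20 and 1.76 FPKM in libraries labelled Tet2-/-, all below the WT libraries (-1.28, SE 0.36, edgeR adjusted p = 0.0690). With IR it fell in the latter by -2.52 (SE 0.27, edgeR adjusted p = 0.000519), with -0.48 in WT (SE 0.34, edgeR adjusted p = 0.440) and an interaction of -2.001 (SE 0.48, edgeR adjusted p = 0.0285). The interaction passed in 8 of 12 fits without 1 library, and not without WT baseline replicate 2 or 3 (edgeR adjusted p = 0.0560 and 0.0577), Tet2-/- baseline replicate 2 (0.0584) or Tet2-/- IR replicate 1 (0.0527). How the allele was made was not analysed here, so WT and Tet2-/- mean the libraries so labelled, also wherever a direction is given. Summed over 12 proximal tubule markers, the level ran from 35669 to 54171 FPKM in WT baseline, from 53176 to 54435 in Tet2-/- baseline, from 22937 to 26711 in WT IR and from 15015 to 24104 in Tet2-/- IR libraries. The sum of 9 tubular injury genes ran from 228 to 540 FPKM at baseline, from 1680 to 7920 in WT IR and from 12055 to 26075 in Tet2-/- IR. The sum of 8 neutrophil markers was at most 2.86 FPKM at baseline and 9.59 in WT IR, and ran from 75.5 to 134 in Tet2-/- IR libraries. The sum of 9 macrophage markers ran from 35.3 to 80.9 FPKM in the other groups and from 65.3 to 241 in Tet2-/- IR libraries. A few libraries stood apart in other markers. Tet2-/- IR replicate 3 had the lowest distal convoluted tubule sum (53.0 FPKM, against 113 to 315 elsewhere). The adipocyte sum was 40.1 and 126 FPKM in WT baseline replicates 2 and 3 and 159 FPKM in Tet2-/- IR replicate 3, against at most 8.44 FPKM in the others. WT baseline replicate 2 had the highest collecting duct sum (1046 FPKM, against 360 to 845 elsewhere), and Tet2-/- IR replicate 3 the lowest thick ascending limb sum (427 FPKM, against 1043 to 2717). Such a sum does not show its single genes. Of the 7 thick ascending limb markers 4 were lower with IR in Tet2-/- kidneys at an edgeR adjusted p under 0.05, against 20.3% of all genes (median log2 fold change -2.05). In WT kidneys 1 was lower, against 1.14% of all genes (median -0.70). WT IR replicate 3 had the lowest podocyte sum (4.80 FPKM, against 15.8 to 91.2) and the lowest endothelium sum (17.4 FPKM, against 57.9 to 208). In whole tissue, fewer cells of a type and less RNA per cell cannot be told apart. What part these differences in cell content have in the results below was not tested.

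After IR in Tet2-/- kidneys, 4 of the 8 members fell (Esrra, Hnf4a, Ppargc1a and Pax2) and 1 rose (Ppara), while in WT kidneys none of the 8 passed the test (1 with the replicate number as a block, Pax2). Rose and fell mean that the quasi-likelihood test of edgeR gave an adjusted p under 0.05, with Benjamini-Hochberg adjustment over all genes tested. Of all genes in the Tet2-/- comparison, 20.3% fell and 22.9% rose, so the background there was high. Esrra also passed a log2 fold change under -1, as did 11.6% of all genes. In WT, 1.14% of all genes fell and 1.88% rose (182 and 301 of 16015). With the replicate number as a block 829 fell and 659 rose, and with DESeq2 874 fell and 1101 rose. List genes counted in those ways for IR in WT, given below, are to be set against these. With 1 library left out 37 to 222 fell and 41 to 466 rose, the lowest counts without WT IR replicate 2 and WT baseline replicate 3 and the highest without WT IR replicate 1. Of the members 0 had an unadjusted p under 0.05 in edgeR's test and 1 in DESeq2, where 0 passed after adjustment. Between the genotypes after IR, 2 members were lower in Tet2-/- kidneys (Esrra and Hnf4a) and 0 higher, against 6.17% and 3.51% of all genes. Between the genotypes at baseline, 0 of 8 passed with edgeR or with DESeq2 and 0 had an unadjusted p under 0.05 with either tool, where 0.0124% of all genes passed in either direction with edgeR (2 of 16086, against 83 higher and 438 lower with DESeq2). In the test of whether the IR effect differed between the genotypes (the interaction over all 12 libraries), 1 member passed, Esrra, with a more negative IR effect in Tet2-/- kidneys. There 5.39% of all genes had a more negative and 3.79% a more positive IR effect in Tet2-/- kidneys.

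The FPKM levels are scaled to library totals without TMM, so changes read from them can differ from the fold changes and percentages, which use TMM. Scaling by library size in place of TMM raised the median log2 fold change of all genes from 0.04 to 0.27 for IR in Tet2-/- kidneys, from 0.04 to 0.14 for the genotypes after IR and from 0.10 to 0.24 for the interaction. With that scaling 5275 genes rose and 2299 fell for IR in Tet2-/- kidneys (3741 and 3313 with TMM). After IR, 802 were then higher and 784 lower in Tet2-/- kidneys (568 and 999 with TMM), and the interaction gave 1129 and 700 (634 and 902 with TMM). For IR in Tet2-/- kidneys 3 members then passed, against 5 with TMM. Pax2 and Ppargc1a no longer did (adjusted p = 0.219 and 0.127 from edgeR), and Esrra passed at -0.94, no longer past the fold limit. Among members tested in these 3 comparisons only Hnf4g changed its sign with this scaling, for IR in Tet2-/- kidneys (-0.08 with TMM and 0.14 with library sizes), and neither value passed.

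**Figure D1:**
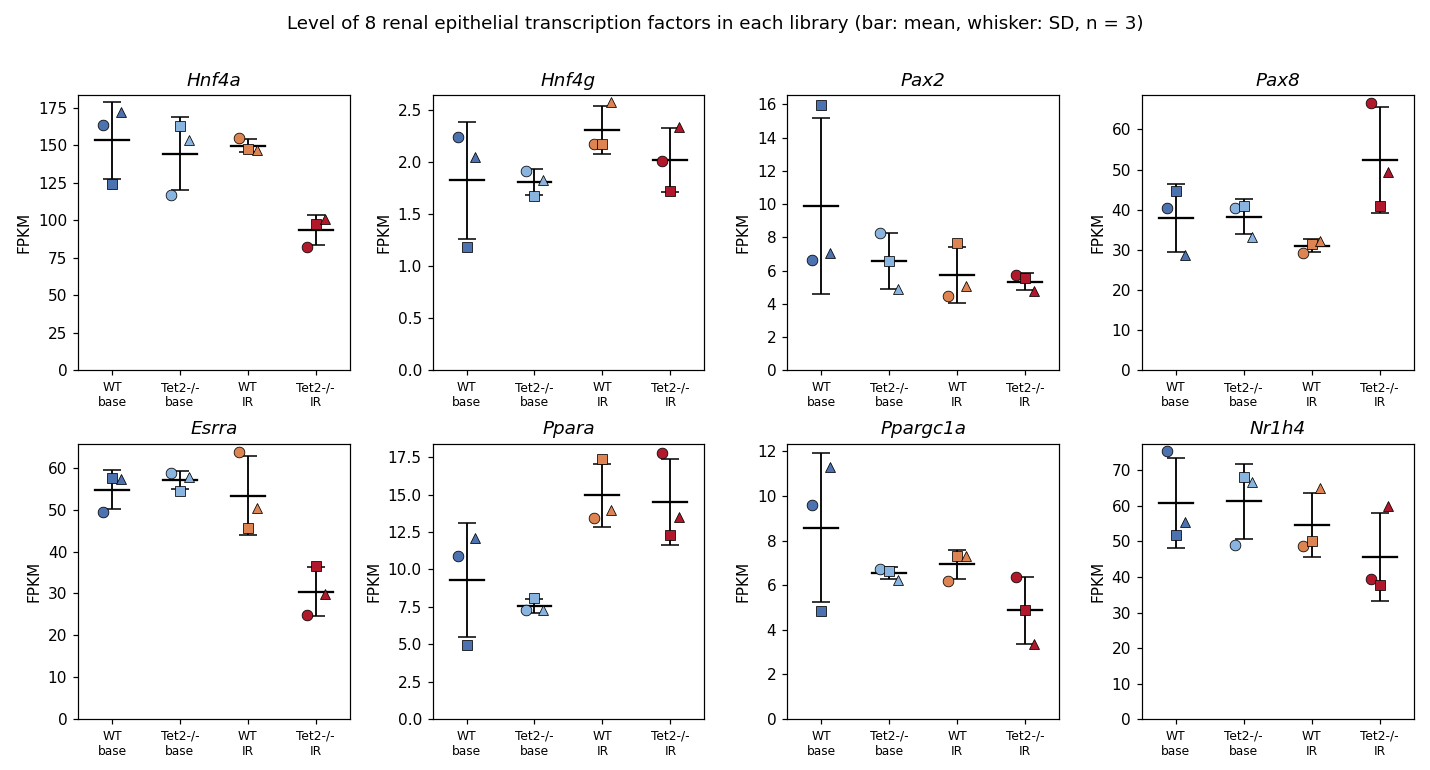
Level of each of the 8 genes in FPKM (y axis, starting at 0) in the 12 libraries, grouped on the x axis as WT baseline, Tet2-/- baseline, WT IR and Tet2-/- IR. Circles, squares and triangles are replicates 1, 2 and 3, horizontal bars are means and whiskers SD (n = 3). Esrra and Hnf4a sit lowest in the 3 Tet2-/- IR libraries, and Pax8 is at 41.0 to 66.7 FPKM there, above every other library but WT baseline replicate 2 (44.8 FPKM).

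Hnf4a (NM_008261, chr2:163372891-163398643 of mm9, plus strand) was the most abundant member in every library. Its level was 164, 124 and 172 FPKM in WT baseline replicates 1, 2 and 3 and 117, 163 and 153 FPKM in Tet2-/- baseline replicates 1, 2 and 3. After IR it was 155, 148 and 147 FPKM in WT and 82.5, 97.3 and 101 FPKM in Tet2-/- replicates 1, 2 and 3. The WT groups overlapped, and every Tet2-/- IR library was below each of the 9 others. The fall with IR in Tet2-/- kidneys was a log2 fold change of -0.88 (SE 0.21, adjusted p = 0.0116 from edgeR), or 45.7% lower with TMM scaling, and -0.65 with library sizes. It passed in all 6 fits that left out 1 library (edgeR adjusted p 0.00945 to 0.0495). In WT kidneys the log2 fold change was -0.10 (SE 0.18, adjusted p = 0.787 from edgeR). Tet2-/- kidneys were lower than WT kidneys after IR by a log2 fold change of -0.78 (SE 0.18, adjusted p = 0.0407 from edgeR). That call held without Tet2-/- IR replicate 3 (adjusted p = 0.0461 from edgeR) but ended without WT IR replicate 1, 2 or 3 (0.126, 0.0729 and 0.142) and without Tet2-/- IR replicate 1 or 2 (0.114 and 0.0949). At baseline the genotypes were at 153 ± 25.5 FPKM in WT and 144 ± 24.4 FPKM in Tet2-/- (SD, n = 3), with a log2 fold change of 0.00 (SE 0.20, adjusted p = 0.992 from edgeR). The interaction was -0.74 (SE 0.26) and did not pass with edgeR (adjusted p = 0.0989), while it passed with DESeq2 (adjusted p = 0.0239).

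The deposited Hnf4a transcripts from the upstream start (NM_001312906) and from the downstream start (NM_008261) share nearly all of their exons and their counts nearly coincide, so the level above does not tell the starts apart. The downstream transcript had the higher count in all 12 libraries, by 0.0914% of its count in Tet2-/- baseline replicate 1 up to 1.27% in WT IR replicate 2. The difference was 0.135% to 1.10% of the count in WT baseline and 0.746% to 1.27% in WT IR libraries, so these ranges overlap. It was 0.0914% to 0.236% in Tet2-/- baseline and 0.570% to 1.18% in Tet2-/- IR libraries, which do not overlap. This comparison was chosen after its values were seen and carries no test.

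Hnf4g (NM_013920, chr3:3508030-3659800, plus strand), the paralog, was the least abundant member. Its level was 2.24, 1.19 and 2.05 FPKM in WT baseline, 1.91, 1.67 and 1.83 FPKM in Tet2-/- baseline, 2.17, 2.17 and 2.57 FPKM in WT IR and 2.01, 1.72 and 2.34 FPKM in Tet2-/- IR libraries. In each comparison the groups overlapped. No comparison passed, and the log2 fold changes were 0.28 for IR in WT (SE 0.28, adjusted p = 0.582 from edgeR), -0.08 for IR in Tet2-/- (SE 0.20, adjusted p = 0.770) and -0.29 between the genotypes after IR (SE 0.23, adjusted p = 0.453). The ratio of Hnf4a to Hnf4g in FPKM, chosen after the values were seen, was 73.0 to 105 in WT baseline, 61.0 to 97.6 in Tet2-/- baseline, 57.0 to 71.3 in WT IR and 41.1 to 56.4 in Tet2-/- IR libraries. In the last group it was thus below the range of every other group.

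Esrra (NM_007953, chr19:6985467-6996298, minus strand), an orphan receptor that acts with PGC-1alpha on genes of the respiratory chain, was the member whose difference was seen in most tests. Its level was 49.4, 57.7 and 57.4 FPKM in WT baseline and 58.9, 54.6 and 57.8 FPKM in Tet2-/- baseline libraries. In IR libraries it was 63.8, 45.6 and 50.5 FPKM in WT and 24.9, 36.5 and 29.9 FPKM in Tet2-/- replicates 1, 2 and 3. The 3 Tet2-/- IR libraries were below all 9 others, which lay between 45.6 and 63.8 FPKM. With IR it fell in Tet2-/- kidneys by 55.6% with TMM scaling, a log2 fold change of -1.17 (SE 0.15, adjusted p = 0.000935 from edgeR), and by -0.94 with library sizes. That call held in all 6 fits that left out 1 library (edgeR adjusted p 0.00154 to 0.00579). In WT kidneys the log2 fold change with IR was -0.10 (SE 0.16, adjusted p = 0.734 from edgeR). The difference between these effects was tested by the interaction, which was -1.03 (SE 0.21, adjusted p = 0.0147 from edgeR) and passed in all 12 fits that left out 1 library (0.00702 to 0.0374). After IR the level in Tet2-/- kidneys was lower than in WT by a log2 fold change of -0.91 (SE 0.19, adjusted p = 0.0306 from edgeR). That call held without WT IR replicate 2 (adjusted p = 0.0303 from edgeR) and ended without WT IR replicate 1 or 3 (0.0925 and 0.0873) and without Tet2-/- IR replicate 1, 2 or 3 (0.0838, 0.0577 and 0.0585). At baseline the log2 fold change between the genotypes was 0.15 (SE 0.12, adjusted p = 0.597 from edgeR). At the 3′ end of the locus 50 bases are shared with Trmt112 on the other strand (mean 22.2 FPKM), and whether strand was used in counting is not given in the sources used here, so a few of its reads may belong to either gene.

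Ppargc1a (chr5:51845488-51945160, minus strand, counted on NR_027710, whose counts nearly equal those of the coding transcript NM_008904) encodes PGC-1alpha, the inducible coactivator of ESRRA and PPARA. Its level was 9.60, 4.83 and 11.3 FPKM in WT baseline and 6.74, 6.63 and 6.22 FPKM in Tet2-/- baseline libraries. After IR it was 6.18, 7.30 and 7.32 FPKM in WT and 6.36, 4.89 and 3.35 FPKM in Tet2-/- replicates 1, 2 and 3. The WT baseline range covered every other group but the lowest 1 of the Tet2-/- IR libraries. In Tet2-/- kidneys it fell with IR by a log2 fold change of -0.69 (SE 0.20, adjusted p = 0.0282 from edgeR), although 1 IR library was within the baseline range. The call ended without Tet2-/- baseline replicate 1, 2 or 3 (edgeR adjusted p 0.0757, 0.0714 and 0.0677), without Tet2-/- IR replicate 2 (0.0838), with library sizes in place of TMM (0.127) and with all 12 libraries in 1 fit (0.0868). For IR in WT the log2 fold change was -0.37 (SE 0.31, adjusted p = 0.512 from edgeR), and between the genotypes after IR it was -0.62 (SE 0.23, adjusted p = 0.126). The interaction was -0.27 (SE 0.41, adjusted p = 0.703 from edgeR), so a difference between the IR effects was not shown.

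Ppara (NM_011144, chr15:85566206-85637281, plus strand) encodes the fatty acid receptor that induces genes of beta-oxidation and ketogenesis. Its level was 10.9, 4.94 and 12.1 FPKM in WT baseline and 7.28, 8.07 and 7.27 FPKM in Tet2-/- baseline libraries. In IR libraries it was 13.5, 17.4 and 13.98 FPKM in WT and 17.8, 12.3 and 13.5 FPKM in Tet2-/- replicates 1, 2 and 3. All 6 IR libraries were above all 6 baseline libraries. It rose in Tet2-/- kidneys by 61.5% with TMM scaling, a log2 fold change of 0.69 (SE 0.17, adjusted p = 0.0155 from edgeR), and by 0.92 with library sizes. That call ended without Tet2-/- baseline replicate 1 or 3 (edgeR adjusted p 0.0604 and 0.0597) and with all 12 libraries in 1 fit (0.0547). In WT kidneys a log2 fold change of near size, 0.61, had a larger error (SE 0.33, adjusted p = 0.315 from edgeR) and did not pass. The interaction was 0.12 (SE 0.40, adjusted p = 0.877 from edgeR), and after IR the genotypes differed by a log2 fold change of -0.13 (SE 0.19, adjusted p = 0.681).

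WT baseline replicate 2 was the lowest of the 12 libraries for both Ppara (4.94 FPKM) and Hnf4g (1.19 FPKM), and the lowest WT library for Hnf4a and Ppargc1a. Ppargc1a was low in the same WT library as Ppara, so that their ratio varied little in that group. In FPKM the ratio was 1.14, 1.02 and 1.07 in WT baseline and 1.08, 1.22 and 1.17 in Tet2-/- baseline libraries. After IR it was 2.18, 2.38 and 1.91 in WT and 2.79, 2.51 and 4.02 in Tet2-/- replicates 1, 2 and 3. The lowest IR library (1.91) was thus above the highest baseline library (1.22). The pair was chosen after the values were seen, so no test is given.

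**Figure D2:**
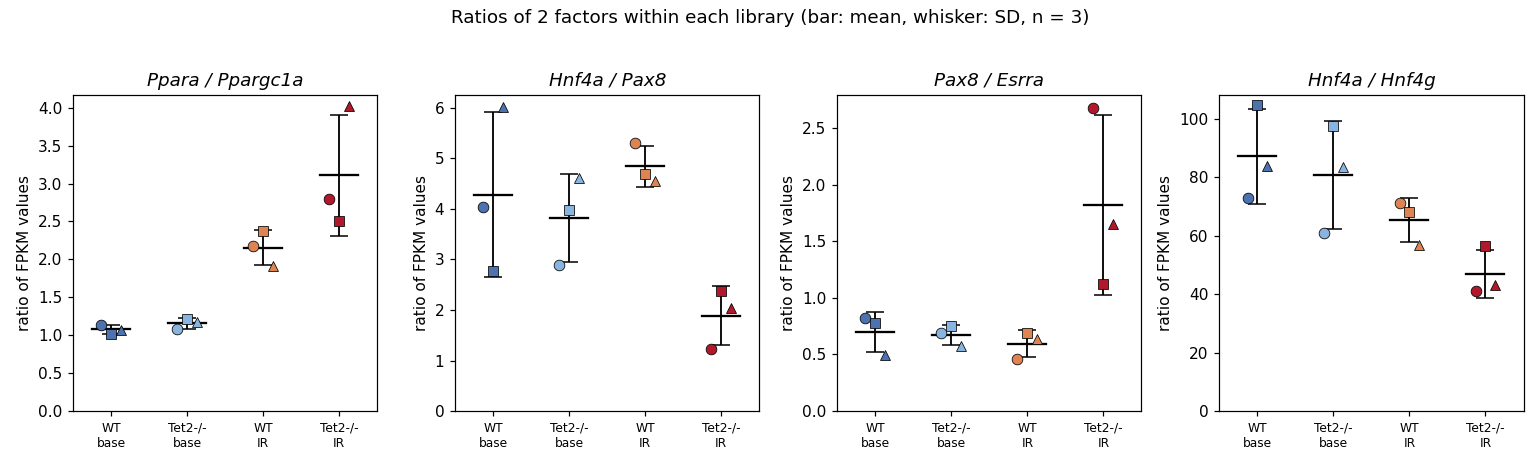
Ratios of FPKM values within each library (y axes, no unit, starting at 0) for Ppara over Ppargc1a, Hnf4a over Pax8, Pax8 over Esrra and Hnf4a over Hnf4g, by group on the x axis. Points are libraries (circle, square and triangle for replicates 1, 2 and 3), bars means and whiskers SD (n = 3). Ppara over Ppargc1a runs from 1.02 to 1.22 at baseline and from 1.91 to 4.02 after IR, and the 3 other ratios leave the range of the other groups in the Tet2-/- IR libraries.

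Pax8 (NM_011040, chr2:24276071-24331119, minus strand), which marks tubular epithelium, had its highest group mean in Tet2-/- kidneys after IR, unlike every other member. Its level was 40.4, 44.8 and 28.6 FPKM in WT baseline and 40.5, 41.0 and 33.3 FPKM in Tet2-/- baseline libraries. In IR libraries it was 29.2, 31.6 and 32.3 FPKM in WT and 66.7, 41.0 and 49.5 FPKM in Tet2-/- replicates 1, 2 and 3. Every Tet2-/- IR library was above every WT IR library. The log2 fold change between the genotypes after IR was 0.66 (SE 0.22) and did not pass with edgeR (adjusted p = 0.1004), while it passed with DESeq2 (0.0428) and with all 12 libraries in 1 edgeR fit (0.0489). For IR the log2 fold change was -0.345 in WT (SE 0.18, adjusted p = 0.299 from edgeR) and 0.21 in Tet2-/- kidneys (SE 0.21, adjusted p = 0.454), where it was 0.43 with library sizes. The interaction was 0.59 (SE 0.30, adjusted p = 0.225 from edgeR).

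Against Pax8, the level of Hnf4a was 2.78 to 6.02 times as high in the 9 libraries of the other groups and 1.24 to 2.37 times as high in Tet2-/- IR libraries. Pax8 over Esrra was 0.458 to 0.819 in those 9 libraries and 1.12 to 2.68 in Tet2-/- IR libraries. Both ratios were chosen after the values were seen. The order of Pax8 and Esrra was thus reversed in Tet2-/- kidneys after IR, where Pax8 was above Esrra in all 3 libraries.

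Pax2 (NM_011037, chr19:44831884-44912359, plus strand) was at 6.61, 16.0 and 7.03 FPKM in WT baseline and 8.27, 6.61 and 4.92 FPKM in Tet2-/- baseline libraries. After IR it was 4.49, 7.64 and 5.08 FPKM in WT and 5.71, 5.56 and 4.77 FPKM in Tet2-/- replicates 1, 2 and 3. WT baseline replicate 2, the library with the highest collecting duct sum, was far above the others, and in each comparison the groups overlapped. For IR in WT the log2 fold change was -0.84 (SE 0.37, adjusted p = 0.232 from edgeR) and -0.30 (adjusted p = 0.503) without that library. With the replicate number as a block it was -0.76 (adjusted p = 0.0435 from edgeR), which passed. It fell with IR in Tet2-/- kidneys by a log2 fold change of -0.56 (SE 0.19, adjusted p = 0.0434 from edgeR), with overlapping groups. Of the fits that left out 1 library, the call held without Tet2-/- baseline replicate 3 (adjusted p = 0.0229 from edgeR). It ended without Tet2-/- baseline replicate 1 or 2 (0.141 and 0.102) and without Tet2-/- IR replicate 1, 2 or 3 (0.0660, 0.106 and 0.0855), and also with library sizes (0.219), with all 12 libraries in 1 fit (0.199) and with the transcripts of each symbol summed (0.0520). The genotypes differed by -0.50 at baseline (SE 0.36, adjusted p = 0.575 from edgeR) and by -0.19 after IR (SE 0.20, adjusted p = 0.558). Of the Pax2 locus 7446 bases are shared with 1700039E22Rik on the other strand, which had at most 69.5 counts in a library, against at least 939.5 for Pax2, and counting may likewise have split reads between them.

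Nr1h4 (NM_001163700, chr10:88916979-88969403, minus strand), the bile acid receptor, was the member with the smallest ratio of its highest to its lowest library (75.4 and 37.7 FPKM). Its level was 75.4, 51.8 and 55.4 FPKM in WT baseline and 49.1, 68.0 and 66.8 FPKM in Tet2-/- baseline libraries. In IR libraries it was 48.7, 50.2 and 65.1 FPKM in WT and 39.5, 37.7 and 60.03 FPKM in Tet2-/- replicates 1, 2 and 3. Tet2-/- IR replicates 1 and 2 were below all other libraries, and Tet2-/- IR replicate 3 was among them. The log2 fold change with IR in Tet2-/- kidneys was -0.67 (SE 0.25) and did not pass with edgeR (adjusted p = 0.0676). It passed without Tet2-/- IR replicate 3 (-0.98, adjusted p = 0.00734 from edgeR), with the replicate number as a block (-0.70, adjusted p = 0.0216) and with DESeq2 (-0.68, adjusted p = 0.0366). It was -0.21 for IR in WT (SE 0.22, adjusted p = 0.607 from edgeR) and -0.35 between the genotypes after IR (SE 0.27, adjusted p = 0.434).

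**Figure D3:**
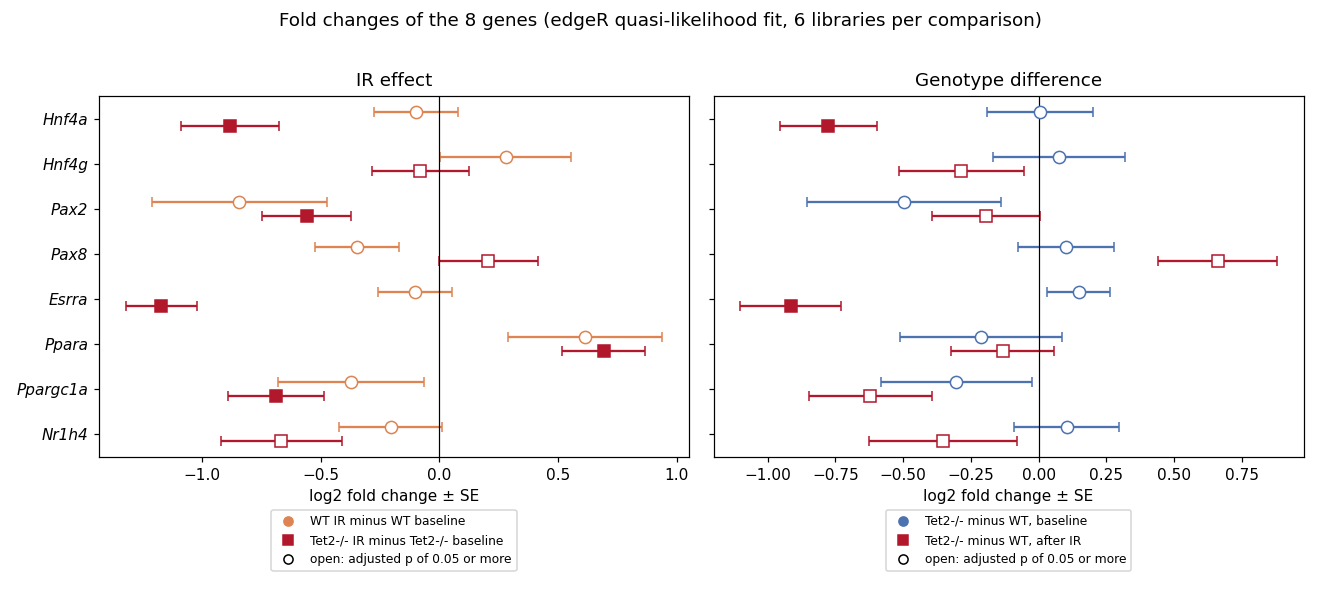
Log2 fold change (x axis) with its SE for the 8 genes (y axis), for IR in WT and in Tet2-/- kidneys (left) and between the genotypes at baseline and after IR (right), from edgeR fits on 6 libraries each. Filled symbols have an adjusted p under 0.05. Esrra and Hnf4a lie at -1.17 and -0.88 for IR in Tet2-/- and near 0 for IR in WT, while Ppara lies at 0.69 and 0.61.

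Over the 12 libraries the mean was 135 FPKM for Hnf4a, 55.7 for Nr1h4, 48.9 for Esrra, 39.9 for Pax8, 11.6 for Ppara, 6.89 for Pax2, 6.72 for Ppargc1a and 1.99 for Hnf4g. Pax2 and Ppargc1a did not differ beyond their spread, and Nr1h4 and Esrra overlapped over the libraries. Within the members, the profiles most alike were those of Hnf4a and Esrra, with a root mean square difference of 0.236 in log2(FPKM + 1) after centring over the 12 libraries. Hnf4a and Nr1h4 followed at 0.245.

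Among 12212 other genes with a mean of at least 1 FPKM, the 2 with the profile nearest to Hnf4a by this measure were Tmco1 (0.0795) and Slc31a1 (0.0918), the latter a copper transporter. Tmco1 was at 24.3, 22.2, 21.5 and 14.4 FPKM on average in WT baseline, Tet2-/- baseline, WT IR and Tet2-/- IR libraries. Nearest to Esrra were Dmtn (0.0903) and Slc25a11 (0.110), the mitochondrial carrier of 2-oxoglutarate and malate. Slc25a11 was at 81.0, 86.4 and 84.6 FPKM in the first 3 groups and at 48.7 FPKM in Tet2-/- IR libraries. Nearest to Hnf4g were Myo7b (0.0911), a myosin of the brush border, and Psmb7 (0.0996). For Pax8 these were Snord53 (0.154) and Xpo6 (0.170), for Pax2 Iqck (0.177) and Hspb2 (0.181), and for Ppara Cachd1 (0.140) and Hook1 (0.151). For Ppargc1a they were Lhx1 (0.156), a kidney developmental factor that is also in the list of nephron factors below, and Med14 (0.162), and for Nr1h4 Msra (0.156) and Apool (0.164). Smaller values mean more alike, and a member that varies little has near neighbours more easily, so these distances are not compared between members.

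Genes described as targets of these factors were taken as lists, to see which of them moved alongside. These lists, and those further below, were chosen with earlier results of these data known. Their counts are thus descriptions and no independent support, also where a share of all genes is set beside them. The HNF4 list holds 20 genes of proximal tubule transport, gluconeogenesis and lipoproteins. With IR in Tet2-/- kidneys 12 of 20 fell and 0 rose, against 20.3% and 22.9% of all genes (median log2 fold change -1.43, against 0.04 over all genes tested). Slc34a1, the phosphate cotransporter of the brush border, fell from 1302 to 1811 FPKM at baseline to 188 to 228 FPKM after IR, a log2 fold change of -3.08 (SE 0.29, adjusted p = 0.0003 from edgeR). G6pc, the last enzyme of gluconeogenesis, fell from 95.4 ± 24.01 to 15.1 ± 6.33 FPKM (SD, n = 3; log2 fold change -2.90, SE 0.40, adjusted p = 0.00128 from edgeR), and Ttr, the carrier of thyroid hormone, fell by a log2 fold change of -2.46 (SE 0.56, adjusted p = 0.0108). In WT kidneys 2 of 20 fell, Ttr (-2.08, SE 0.21, adjusted p = 0.00842 from edgeR) and Apom (-1.13, SE 0.19, adjusted p = 0.0309), an apolipoprotein of HDL, against 1.14% of all genes, and the median was -0.36. That count was 1 without any 1 of the 6 libraries, while with the replicate number as a block, and also with DESeq2, 6 fell and 4 rose. Of 16015 genes in all, 829 fell and 659 rose with the block, and 874 fell and 1101 rose with DESeq2. An unadjusted p under 0.05 was found for 11 genes with edgeR or DESeq2 and for 14 with the block. Between the genotypes after IR 8 of 20 were lower in Tet2-/- kidneys and 0 higher, against 6.17% and 3.51% of all genes (median -1.25, against 0.04 over all genes). The endocytic receptors Cubn and Lrp2 were among them, at 29.8 ± 3.62 and 71.98 ± 15.2 FPKM in WT IR and 8.77 ± 1.90 and 21.8 ± 2.43 FPKM in Tet2-/- IR libraries (SD, n = 3). Their log2 fold changes were -1.87 (SE 0.17, adjusted p = 0.00989 from edgeR) for Cubn and -1.81 (SE 0.22, adjusted p = 0.0114) for Lrp2, and Slc34a1 was lower by -1.74 (SE 0.29, adjusted p = 0.0187). With 1 library left out the count of 8 became 2 to 5, namely 2 without WT IR replicate 1 or 3 or Tet2-/- IR replicate 2, 3 without Tet2-/- IR replicate 1, 4 without Tet2-/- IR replicate 3 and 5 without WT IR replicate 2, and it was 16 with DESeq2. Over all genes the 999 that were lower also became fewer, from 250 without WT IR replicate 1 to 789 without WT IR replicate 2, and were 1839 with DESeq2. The interaction passed for 7 genes with edgeR, against 5.39% of all genes in that direction, for 10 with DESeq2 and for 12 with the replicate number as a block, all with a more negative IR effect in Tet2-/- kidneys. Of 16741 genes in all, 902 were more negative with edgeR, 1600 with DESeq2 and 1077 with the block. With 1 library left out the 7 became 3 to 8 (3 without Tet2-/- baseline replicate 3 or WT IR replicate 1, 4 without WT baseline replicate 1, Tet2-/- baseline replicate 1 or 2 or WT IR replicate 3, and 5 to 8 otherwise). At baseline 0 of 20 differed with edgeR and 1 with DESeq2, and 1 had an unadjusted p under 0.05.

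Of the 12 proximal tubule markers, a list that shares no gene with the HNF4 list, 9 fell with IR in Tet2-/- kidneys and 3 in WT kidneys, with medians of -1.72 and -0.90. Over all genes 20.3% and 1.14% fell, with medians of 0.04 and -0.03. In WT kidneys 4 fell and 1 rose with the replicate number as a block, and 5 fell and 1 rose with DESeq2. The summed markers were lower after IR in both genotypes. Hnf4a was lower after IR in Tet2-/- kidneys and at 147 to 155 FPKM in WT IR libraries, and its interaction did not pass (-0.74, adjusted p = 0.0989 from edgeR). How Hnf4a relates to these sums was not tested. After IR 4 of the 12 markers were lower in Tet2-/- than in WT kidneys (median -1.05), against 6.17% of all genes (median 0.04).

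The list for ESRRA and PGC-1alpha holds 37 genes of the respiratory chain, the citric acid cycle and NAD synthesis from tryptophan. In Tet2-/- kidneys 26 of the 34 tested fell with IR and 0 rose, against 20.3% and 22.9% of all genes (median log2 fold change -0.89, against 0.04 over all genes). Ido2 and Haao, enzymes of tryptophan catabolism, fell by -4.38 (SE 0.50, adjusted p = 0.000595 from edgeR) and -2.88 (SE 0.15, adjusted p = 5.19e-05), and Cox7a1, a subunit of cytochrome oxidase, by -2.23 (SE 0.21, adjusted p = 0.0003). Haao was at 205 to 246 FPKM in Tet2-/- baseline and at 31.6 to 41.0 FPKM in Tet2-/- IR libraries. Sdhb, a subunit of succinate dehydrogenase chosen after its values were seen, fell from 370 ± 42.3 to 178 ± 7.47 FPKM (SD, n = 3; log2 fold change -1.31, adjusted p = 0.00100 from edgeR). In WT kidneys 1 of 35 fell, Afmid, the formamidase of the same pathway (-0.80, adjusted p = 0.0355 from edgeR), chosen here after its values were seen, against 1.14% of all genes, and the median was -0.13. With 1 library left out this count was 3 without WT IR replicate 1 and 0 without any of the other 5, it was 2 with the replicate number as a block and 3 with DESeq2, and 7 had an unadjusted p under 0.05. After IR 11 of 35 were lower in Tet2-/- than in WT kidneys and 0 higher, against 6.17% and 3.51% of all genes (median -0.54). Ido2 was at 3.48 to 8.87 FPKM in WT IR and at 0.104 to 0.501 FPKM in Tet2-/- IR libraries (log2 fold change -4.31, SE 0.62, adjusted p = 0.0138 from edgeR). Haao was lower by -1.89 (SE 0.21, adjusted p = 0.0106 from edgeR) and Afmid by -1.32 (SE 0.18, adjusted p = 0.0125). The count of 11 became 3 to 7 with 1 library left out, namely 3 without WT IR replicate 1 or 3 or Tet2-/- IR replicate 1, 4 without Tet2-/- IR replicate 2, 6 without Tet2-/- IR replicate 3 and 7 without WT IR replicate 2, and it was 22 with DESeq2. Over all genes 999 were lower, 250 to 789 with 1 library left out and 1839 with DESeq2. For 10 of 36 the interaction passed, each with a more negative IR effect in Tet2-/- kidneys, against 5.39% of all genes (6 without Tet2-/- baseline replicate 3 or WT IR replicate 1 or 3, 17 without Tet2-/- IR replicate 3, and 7 to 15 otherwise), and with DESeq2 21 were more negative and 1 more positive. At baseline 0 of 36 differed with edgeR and 1 with DESeq2, and 3 had an unadjusted p under 0.05.

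**Figure D4:**
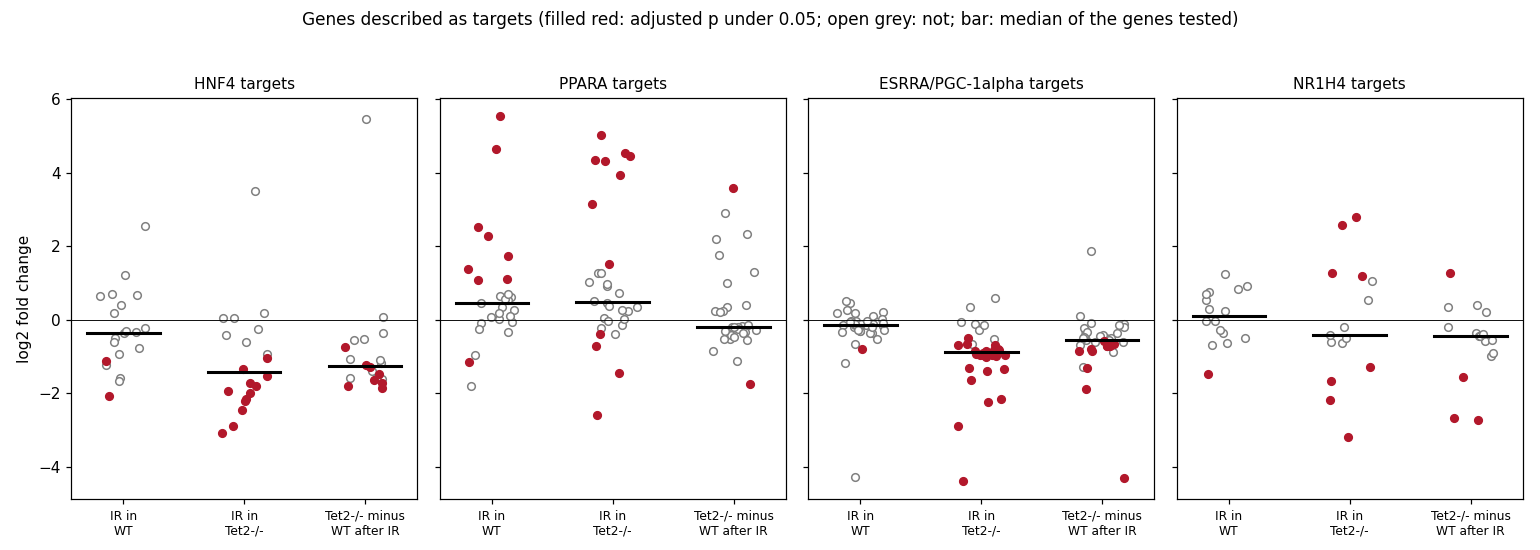
Log2 fold change (y axis) of each tested gene described as a target of HNF4, PPARA, ESRRA and PGC-1alpha, or NR1H4, for IR in WT, IR in Tet2-/- and Tet2-/- minus WT after IR (x axis). Filled points have an adjusted p under 0.05 from edgeR and bars are medians, which for the ESRRA and PGC-1alpha list are -0.13, -0.89 and -0.54 and for the PPARA list 0.45, 0.49 and -0.20.

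The PPARA list holds 30 genes of fatty acid oxidation and lipid handling. Of 27 tested in WT kidneys 8 rose with IR and 1 fell, against 1.88% and 1.14% of all genes (median 0.45, against -0.03 over all genes), and of 30 in Tet2-/- kidneys 8 rose and 4 fell (median 0.49), or 26.7% and 13.3%, near the 22.9% and below the 20.3% of all genes. Cyp4a14, a fatty acid hydroxylase, rose by 4.63 in WT (SE 0.85, adjusted p = 0.0400 from edgeR) and 4.46 in Tet2-/- kidneys (SE 0.94, adjusted p = 0.00757). Plin2, the coat protein of lipid droplets, rose by 2.52 in WT (SE 0.48, adjusted p = 0.0444 from edgeR) and by 4.52 in Tet2-/- kidneys (SE 0.61, adjusted p = 0.00117). In most fits with 1 library left out the WT count shrank, as did the 301 that rose over all genes. It became 0 with edgeR without WT baseline replicate 1, 2 or 3, where 45, 74 and 41 of all genes rose. The count was 4 without WT IR replicate 2 and 2 without WT IR replicate 3, where 62 and 90 of all genes rose. The 1 that fell was lost without any 1 of the 6 libraries. With the replicate number as a block 10 rose and 2 fell, with DESeq2 11 and 1, and 16 had an unadjusted p under 0.05. In Tet2-/- kidneys 6 to 13 rose with 1 library left out, 13 without Tet2-/- IR replicate 2, and 2 fell without Tet2-/- baseline replicate 3.

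Between the genotypes after IR 1 of 30 PPARA targets was higher in Tet2-/- kidneys and 1 lower, 3.33% each, which is no more than the 3.51% and 6.17% of all genes. The 1 that was higher, Pdk4, the kinase that shuts off pyruvate dehydrogenase, was at 4.25 to 8.10 FPKM in WT IR and at 22.7 to 189 FPKM in Tet2-/- IR libraries (log2 fold change 3.57, SE 0.82, adjusted p = 0.0412 from edgeR). The 1 that was lower, Acadm, the medium-chain acyl-CoA dehydrogenase, was at 383 to 508 FPKM in WT IR and at 113 to 181 FPKM in Tet2-/- IR libraries (-1.76, SE 0.25, adjusted p = 0.0131 from edgeR). The higher count was 0 when any library but Tet2-/- IR replicate 2 was left out (2 higher without that one), and 2 were lower without Tet2-/- IR replicate 1. The interaction passed for 4 of 30, in the positive direction for 3 and in the negative for 1, Acadm, against 3.79% and 5.39% of all genes, so that the negative share of 3.33% was below that over all genes. The 3 were 2 without WT IR replicate 2 and 3 without Tet2-/- IR replicate 2 or 3, and became 0 or 1 without any of the other 9 libraries, while 4 were negative without Tet2-/- IR replicate 1. At baseline 0 of 27 differed with edgeR and 2 with DESeq2, and 5 had an unadjusted p under 0.05.

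Of 20 genes described as NR1H4 targets, many belong to liver and gut, and 10 had a mean of at least 1 FPKM in these kidneys. Of those tested in Tet2-/- kidneys, 4 of 15 rose and 4 fell with IR, 26.7% each, near the 22.9% and 20.3% of all genes. Slc51a, which encodes a subunit of the basolateral bile acid exporter, fell from 77.1 ± 12.8 to 10.1 ± 1.75 FPKM (SD, n = 3; log2 fold change -3.19, SE 0.20, adjusted p = 9.47e-05 from edgeR). Sdc1, a heparan sulfate proteoglycan, and Abcc3, an export pump, rose by 2.78 (SE 0.30, adjusted p = 0.000518 from edgeR) and 2.57 (SE 0.23, adjusted p = 0.000251). In WT kidneys 1 of 16 fell, against 1.14% of all genes, Slc51a (-1.47, SE 0.16, adjusted p = 0.0106 from edgeR), while with the replicate number as a block 2 fell and 1 rose. After IR 3 of 16 were lower in Tet2-/- than in WT kidneys and 1 higher, against 6.17% and 3.51% of all genes. Slc10a2, the apical bile acid transporter, was at 15.2 to 26.9 FPKM in WT IR and 2.34 to 3.70 FPKM in Tet2-/- IR libraries (-2.73, SE 0.27, adjusted p = 0.00989 from edgeR). Slc51a was lower by -1.57 (SE 0.18, adjusted p = 0.0112 from edgeR) and Sdc1 higher by 1.28 (SE 0.29, adjusted p = 0.0406), a call that ended when any 1 of the 6 libraries was left out. Nr0b2 (SHP), the corepressor that NR1H4 is known to induce and which was chosen after its values were seen, was at 0.803, 0.639 and 0.992 FPKM on average in WT baseline, Tet2-/- baseline and WT IR libraries and at 0.166 FPKM in Tet2-/- IR libraries. It was lower in Tet2-/- than in WT kidneys after IR by a log2 fold change of -2.68 (adjusted p = 0.0306 from edgeR). The interaction passed for 5 of 17 genes of the list, with a more positive IR effect in Tet2-/- kidneys for 3 and a more negative one for 2, and for 3 each with DESeq2 or the replicate number as a block. Those shares were 17.6% and 11.8%, against 3.79% and 5.39% of all genes. The 3 became 0 without Tet2-/- baseline replicate 3 and 2 or 3 otherwise. The 2 became 3 without WT IR replicate 2, stayed at 2 without WT baseline replicate 2 or 3, Tet2-/- baseline replicate 3 or Tet2-/- IR replicate 2, and became 1 without any of the other 7.

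Other transcription factors of the nephron formed a list of 24 genes without the members. With IR 8 fell and 1 rose in Tet2-/- kidneys (median log2 fold change -0.48), or 33.3% and 4.17%, against 20.3% and 22.9% of all genes. The 1 that rose was lost without Tet2-/- baseline replicate 2 or 3 or Tet2-/- IR replicate 1 or 2, and 4 rose without Tet2-/- IR replicate 3. In WT kidneys 0 changed with edgeR, 4 fell with the replicate number as a block and 2 with DESeq2, where 829 and 874 of 16015 genes fell. An unadjusted p under 0.05 from edgeR was found for 5 (median -0.12). Irx1, a factor of proximal and intermediate nephron segments in development, fell from 27.5 to 49.6 FPKM to 4.83 to 13.8 FPKM (log2 fold change -2.31, SE 0.35, adjusted p = 0.00187 from edgeR). Klf15, a regulator of gluconeogenesis and amino acid breakdown, fell by -2.10 (SE 0.26, adjusted p = 0.00087 from edgeR) and Emx1 by -1.71 (SE 0.15, adjusted p = 0.000257). After IR 3 were lower in Tet2-/- than in WT kidneys, or 12.5% against 6.17% of all genes, and 6 with DESeq2. The 3 (4 without WT IR replicate 2, 1 without Tet2-/- IR replicate 3 and 0 without any of the other 4) included Klf15 (-1.37, SE 0.28, adjusted p = 0.0293 from edgeR) and Emx1 (-1.28, SE 0.30, adjusted p = 0.0443).

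Receptor partners and cofactors, a list of 27 genes, included the RXR receptors, the ERR paralogs and the PGC-1 family. With IR in Tet2-/- kidneys 7 of 26 fell and 2 rose, or 26.9% and 7.69%, against 20.3% and 22.9% of all genes. The 7 became 3 without Tet2-/- baseline replicate 2 and 4 without Tet2-/- baseline replicate 3, where 1 rose. In WT kidneys 0 of 27 changed with edgeR. With the replicate number as a block, and also with DESeq2, 2 fell and 1 rose, where 829 and 874 of 16015 genes fell and 659 and 1101 rose. An unadjusted p under 0.05 from edgeR was found for 6. Perm1, a coregulator acting with PGC-1alpha and ERR receptors, fell from 1.96 to 2.52 FPKM to 0.581 to 0.634 FPKM (log2 fold change -2.17, SE 0.19, adjusted p = 0.000251 from edgeR). The corepressor Nrip1 rose by 1.69 (SE 0.41, adjusted p = 0.0132 from edgeR) and Pprc1, a relative of PGC-1alpha, by 1.33 (SE 0.20, adjusted p = 0.00167). Rxra, the obligate partner of PPARA and NR1H4, had a log2 fold change of -0.24 with IR in Tet2-/- kidneys (adjusted p = 0.304 from edgeR), and Ppargc1b, the PGC-1 paralog, one of -0.29 (adjusted p = 0.416). Both were chosen after their values were seen. Esrrb, a paralog of Esrra also chosen so, fell by -1.18 (adjusted p = 0.0229 from edgeR) and had a log2 fold change of -1.05 in WT (adjusted p = 0.0767). After IR 3 of 27, or 11.1%, were lower in Tet2-/- kidneys, against 6.17% of all genes, and 0 higher, while with DESeq2 5 were lower and 1 higher. The count of 3 was 0 without WT IR replicate 1 or 3 or Tet2-/- IR replicate 1, and 1 without Tet2-/- IR replicate 2 or 3.

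The network in which PAX2 and PAX8 act in kidney development (PAX, EYA and HOX genes, GDNF, RET and others, 21 in the list) was nearly silent, with 4 genes at a mean of at least 1 FPKM. Of 13 tested in Tet2-/- kidneys 4 rose and 2 fell with IR (1 fell without any 1 of the Tet2-/- baseline libraries). These are shares of 30.8% and 15.4%, against 22.9% and 20.3% of all genes, and the median log2 fold change was -0.35. In WT kidneys 0 of 13 changed with edgeR or DESeq2, 2 fell with the replicate number as a block, and 2 had an unadjusted p under 0.05. Among the 4 was Wt1, which in the adult is a podocyte gene, from 0.557 to 0.592 FPKM at baseline to 2.22 to 3.64 FPKM after IR (log2 fold change 2.03, SE 0.27, adjusted p = 0.00117 from edgeR). Of 6 podocyte markers 5 rose in the same comparison, against 22.9% of all genes, and their sum was 15.8 to 24.02 FPKM in Tet2-/- baseline and 47.8 to 91.2 FPKM in Tet2-/- IR libraries.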

How the data were processed

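STAR (alignment to mm9) and HOMER (counting per RefSeq transcript) were used by the authors; versions are not given in the sources used here. They deposited expected counts (not normalized, in steps of 0.5, 38.7% of values not whole) and FPKM values, which the authors scaled to transcript length and library total. The design assumed that counts not whole would be rounded, and they were. For 5569 of 24421 symbols with several transcripts, the one with the highest total was used. Totals of 51007366 to 107969888 counts per library set the precision, and the mouse is the unit.

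Groups follow the labels. Counts were fitted in R 4.3.3 with edgeR 4.0.16 (TMM, filterByExpr, quasi-likelihood F test, Benjamini-Hochberg adjustment; SE is the log2 fold change over the root of F), with 6 libraries per comparison and all 12 for the interaction. The study's fold limit is a log2 fold change of 1. Scripts were tested on simulated data. Alternatives were DESeq2 1.42.0, library sizes in place of TMM, no filter, all 12 libraries in 1 fit, the replicate number as a block, no fold limit, each library left out in turn and summed transcripts. Same-numbered libraries deviated together in the IR comparisons (correlations 0.380, 0.363 and 0.358 in WT, 0.135, 0.359 and 0.222 in Tet2-/-), although they come from different mice, and the pairing rests on this. Same-numbered libraries were regarded as pairs only where every correlation was over 0.1, which the genotype comparisons missed (-0.186, -0.167 and 0.0709 at baseline, and 0.00257, 0.230 and 0.320 after IR, where 1 pair of 3 missed it). The main fits held no replicate term in any comparison, so the block is an alternative only.

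The 8 members and all lists were chosen with earlier results of these data known. Named besides the members and Tet2 are the 2 genes with the nearest profile, and per list and comparison up to 3 genes with the largest fold change among those past both limits, with no overlap and a mean of at least 1 FPKM in the higher group; others are said to be chosen after their values were seen. A few genes and 1 motif of these lists are not reported here. Promoters are from RefSeq (GRCm38.p6). Figures used matplotlib.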

Additional observations from a re-analysis of the deposited data

Results flagged for a closer look

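The IR effect on Esrra differed between the genotypes, with an interaction of -1.03 on the log2 scale (edgeR's quasi-likelihood test over all 12 libraries), and it was the only member for which this test passed with edgeR. It also passed for 13 of the 26 list genes chosen by rule. They were chosen for large fold changes in the same libraries, so the count is no independent evidence; over all genes 5.39% had a more negative and 3.79% a more positive IR effect in Tet2-/- kidneys. The IR effect was more negative in Tet2-/- than in WT kidneys for Ido2 (-4.23), Acadm (-2.20), Haao (-2.19), Slc34a1 (-1.81), Slc51a (-1.68), Cubn (-1.66), Irx1 (-1.60), Lrp2 (-1.60), Emx1 (-1.57) and Afmid (-1.31). It was more positive for Pdk4 (3.46), Sdc1 (1.89) and Abcc3 (1.76). Groups of 3 libraries are too small for the test of single libraries that stand apart.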

How the results depend on the processing

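Over the alternatives, most member results kept their direction and their side of the threshold: 216 did so without a library left out, while 7 lost and 6 gained the call and 3 changed sign, and 249 did so with 1 left out, while 21 lost and 1 gained it and 17 changed sign. The number of members past both limits (adjusted p under 0.05 and the fold limit) for IR in Tet2-/- was 1, and became 0 with library sizes in place of TMM and 5 with no fold limit; it ran from 1 to 2 with 1 library left out. Without the fold limit, the 5 became 3 with library sizes and 2 with all 12 libraries in a single fit, and 2 to 5 with 1 left out. After IR between the genotypes the number past both limits was 0, became 2 with no fold limit, and was 0 to 1 with 1 left out. Without the fold limit, the 2 became 1 with the replicate number as a block, where Esrra no longer passed (-0.91, adjusted p = 0.0535 from edgeR), and 0 to 1 with 1 left out. The interaction passed for 2 with DESeq2. For IR in WT the block made the count 1 (Pax2, -0.76); besides Pax2 and Nr1h4 for IR and Esrra after IR, it changed no other call of a member. Over all genes, DESeq2 called 1448 higher and 1839 lower between the genotypes after IR and 1210 and 1600 in the interaction (568 and 999, and 634 and 902, with edgeR). Values that changed sign were not called on either side. With library sizes this was Hnf4g for IR in Tet2-/- (0.14) and Hnf4a between the genotypes at baseline (-0.0659), which was also -0.0286 with all 12 libraries in a single fit. With 1 library left out, the log2 fold change for IR in WT ran from -0.21 to 0.00866 for Hnf4a and from -0.22 to 0.0517 for Esrra, and for IR in Tet2-/- from -0.25 to 0.0815 for Hnf4g and from -0.0148 to 0.41 for Pax8. At baseline it ran from -0.13 to 0.15 for Hnf4a, -0.16 to 0.24 for Hnf4g, -0.72 to 0.0370 for Pax2, -0.0615 to 0.24 for Pax8 and -0.52 to 0.0280 for Ppara. After IR it ran from -0.36 to 0.00714 for Pax2 and -0.31 to 0.0150 for Ppara, and in the interaction from -0.26 to 0.54 for Pax2 and -0.13 to 0.36 for Ppara. With 3 libraries per group an exact permutation test of a single gene cannot go below p = 0.1, so calls rest on the spread shared across genes.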
